A study of Mus musculus with 36 samples.

Results

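The genes described are 8 that were followed in the brains of Gpt2 knockout (KO) and wild-type (WT) mice, namely Cyb5r1, Trim66, Dleu7, Ocel1, Cdc42ep1, Emid1, Plch2 and Diras2. They are 8 of 56184 genes in the count table, and all 8 passed the filter on low counts that left 16255 genes. They were picked because their levels differed strongly between genotypes in these libraries, with vehicle or with dm-αKG, and because they lie outside the stress and lipid pathways already known to move. The genotype differences below are therefore descriptions of the genes, not tests of them.

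Gpt2 encodes the mitochondrial alanine transaminase. Polyadenylated RNA was measured in 10 mg pieces of brain taken on postnatal day 19, in 8 libraries of KO mice given dm-αKG (KO-aKG), 10 of KO mice given vehicle (KO-Veh), 8 of WT mice given dm-αKG (WT-aKG) and 10 of WT mice given vehicle (WT-Veh). The agent, dm-αKG, is the dimethyl ester of α-ketoglutarate and was injected into the peritoneum at 600 mg per kg. The sources used here do not give the deleted part of Gpt2, the strain, the sex of the mice or the brain region of the pieces. They also do not say that libraries stem from different animals, and p-values cover only the spread among the libraries, which may be partly technical. Xist stood above the Y-linked Ddx3y, as in females, in KO-aKG-2, 5, 6 and 8 and in KO-Veh-1 and 4. In wild types it did so in WT-aKG-3, 4, 5, 6 and 8 and in WT-Veh-1 and 10. By this sign sex was not balanced between dm-αKG and vehicle in either genotype.

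The 8 genes come from unrelated families. Cyb5r1 belongs to the NADH-cytochrome b5 reductases, flavoproteins that pass electrons from NADH to cytochrome b5 and other acceptors. Trim66 is a relative of the TIF1 proteins, nuclear regulators that read histone marks through a PHD finger and bromodomain. Dleu7 is named for the human chromosome region deleted in lymphocytic leukaemia, and the function of its product is little known. Ocel1 carries an occludin-ELL domain and is also little studied. Cdc42ep1 is an effector of the small GTPase Cdc42 that binds septins and shapes the cytoskeleton, Emid1 is a secreted protein with an EMI domain and collagen repeats, Plch2 is a calcium-sensitive phospholipase C of neurons that cleaves phosphatidylinositol bisphosphate into inositol trisphosphate and diacylglycerol, and Diras2 is a Ras-related small GTPase found mainly in brain.

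Libraries held 5768225 to 13267397 counts. Gpt2 stood at 1.12 to 3.18 CPM (counts scaled to the library total, with TMM factors) in KO-aKG and 0.881 to 3.30 CPM in KO-Veh, against 26.3 to 38.1 CPM in WT-aKG and 22.0 to 39.0 CPM in WT-Veh, so every library lay on the side its label gives. Markers of brain regions varied strongly between pieces. A score of 21 cerebellum markers, their mean log2 CPM, exceeded its overall mean by more than 1 log2 unit in 9 of 36 libraries: KO-aKG-7, KO-Veh-7, WT-aKG-3, 6, 7 and 8, and WT-Veh-1, 6 and 9. These 9 are called cerebellum-high below, and genotype differences are given with and without them. In bulk tissue fewer cells of a type and less RNA per cell cannot be told apart.

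A gene is called here at an adjusted p under 0.05 by edgeR's quasi-likelihood test, with Benjamini-Hochberg adjustment over all 16255 genes. Between KO-aKG and WT-aKG 182 genes (1.12%) were called higher and 122 (0.751%) lower in knockouts, and between KO-Veh and WT-Veh 422 (2.6%) were called higher and 279 (1.72%) lower. On the deposited CPM table, without TMM scaling, limma gave 204 higher and 6 lower with dm-αKG and 138 higher and 23 lower with vehicle. Without the cerebellum-high libraries edgeR called 217 higher and 382 lower with dm-αKG (together 3.63% of 16524 genes) and 369 higher and 254 lower with vehicle (together 3.77%). Of the 8 genes, 2 were called higher (Cyb5r1 and Trim66) and 4 lower (Ocel1, Emid1, Plch2 and Diras2) with dm-αKG. With vehicle 3 were called higher (Cyb5r1, Trim66 and Dleu7) and 2 lower (Ocel1 and Cdc42ep1). These counts follow from the way the genes were picked and are no finding.

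**Figure D1:**
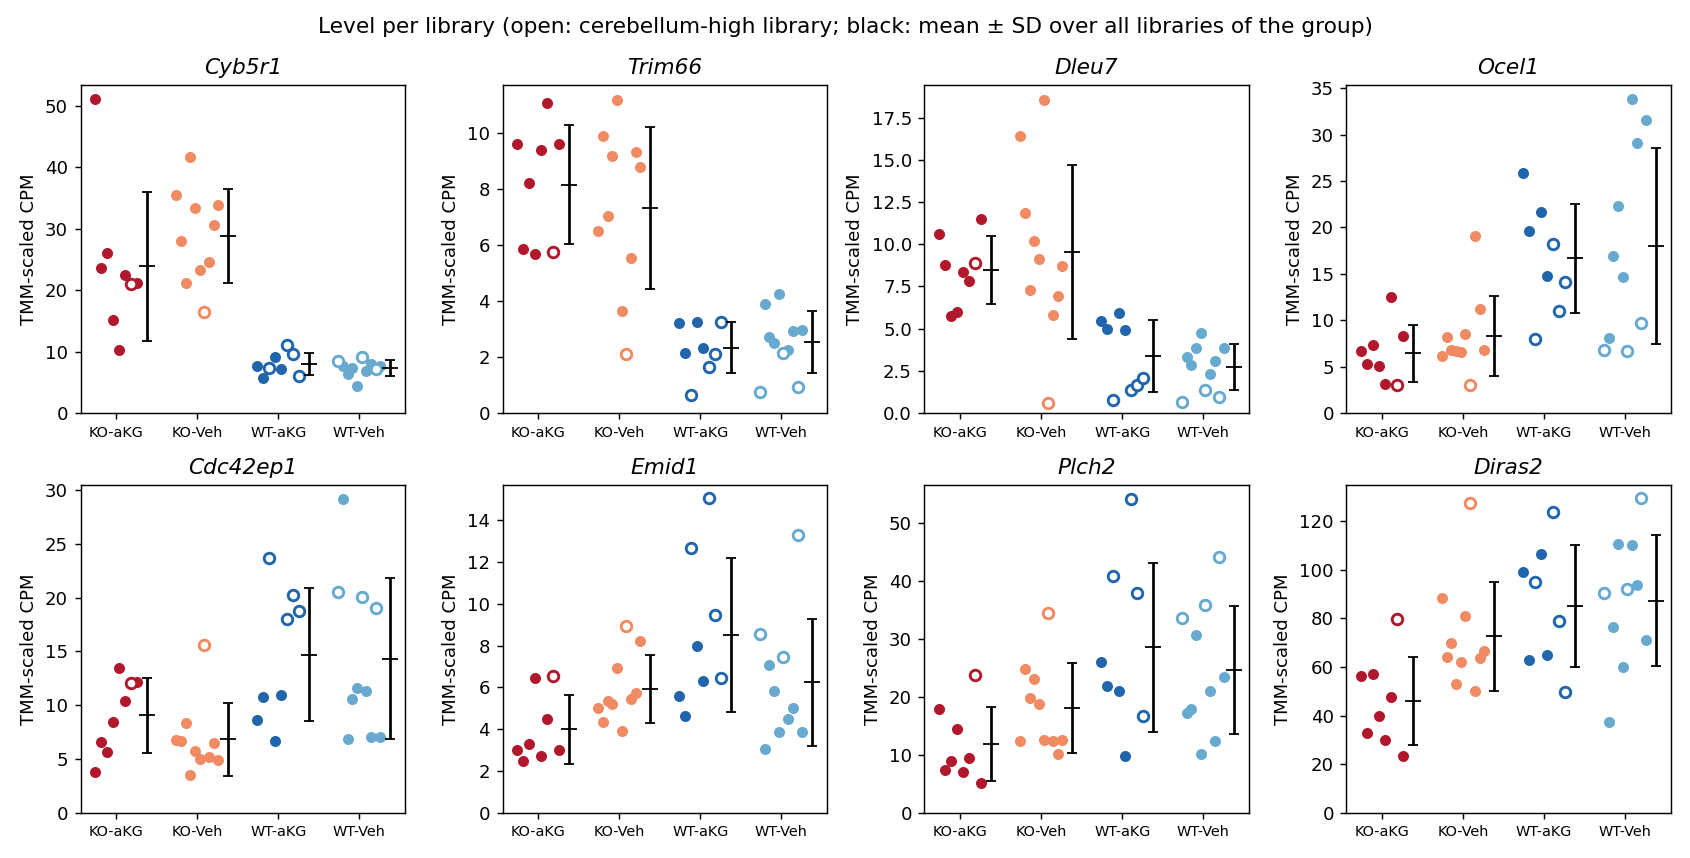
Level of each gene in every library, in TMM-scaled CPM on linear axes that start at 0, by group. Points are single libraries, open for the 9 cerebellum-high ones, and the black bar beside each group is its mean ± SD. All 10 KO-Veh libraries lie above all 10 WT-Veh libraries for Cyb5r1, and the open points lie low for Dleu7 in WT libraries.

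The promoters of Cyb5r1 and Trim66 are shown because these genes were called higher under both treatments in every setting tried. As described below, their levels also moved with those of ATF4 target genes. In the TMM-scaled values of the libraries that are not cerebellum-high, Trim66 did so by Pearson r only. ATF4, a transcription factor made when translation is slowed by stress, binds composite C/EBP-ATF elements in many of its targets. The sequences are RefSeq windows of GRCm38.p6 on the strand of the gene, 5′ to 3′. They run from 250 bases before to 50 after the start annotated by RefSeq, with the 50 bases from that start on in capitals. The window of Cyb5r1 is chr1:134405531-134405830 on the plus strand, and that of Trim66 is chr7:109508085-109508384 on the minus strand. GENCODE places the start of Cyb5r1 at base 134405559, so most of its window lies inside the gene by that annotation and little lies upstream.
Cyb5r1: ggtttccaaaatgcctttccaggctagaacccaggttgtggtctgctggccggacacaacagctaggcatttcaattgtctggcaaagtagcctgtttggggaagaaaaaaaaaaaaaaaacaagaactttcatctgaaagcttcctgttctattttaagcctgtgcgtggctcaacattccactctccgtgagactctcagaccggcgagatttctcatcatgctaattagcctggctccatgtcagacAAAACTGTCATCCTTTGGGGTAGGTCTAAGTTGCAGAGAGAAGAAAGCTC
Trim66: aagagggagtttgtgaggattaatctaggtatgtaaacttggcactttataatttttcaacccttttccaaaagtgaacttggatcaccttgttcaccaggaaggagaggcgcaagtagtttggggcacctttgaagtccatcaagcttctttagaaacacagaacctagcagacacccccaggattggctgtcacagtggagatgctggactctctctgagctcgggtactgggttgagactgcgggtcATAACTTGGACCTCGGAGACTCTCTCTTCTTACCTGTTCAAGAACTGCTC
RefSeq held 10 such windows for the 8 genes. None of the 10 contains the core of the composite element, TGATGNAA, the cAMP response element, TGACGTCA, or the sterol regulatory element, TCACNCCAC, on either strand. Of all 32851 windows of the same table, 3.97% hold the first motif, 1.79% the second and 1.24% the third. These letters are absent from these windows, which says nothing about binding elsewhere. The windows of Diras2 and Plch2, and the Emid1 window that ends at base 5150324, also lie inside the GENCODE genes. Their lack of a motif, like that of Cyb5r1, does not describe the bases upstream of the GENCODE starts. The GC content of the Cyb5r1 and Trim66 windows was 45.7% and 47%, against a median of 52.7% over all windows.

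Cyb5r1 (ENSMUSG00000026456.18, GRCm38 chromosome 1, 134405559 to 134411740, plus strand) was higher in nearly every knockout library. Its level in KO-aKG had a lowest value of 10.3, a median of 21.9 and a highest value of 51.1 CPM, against 5.74, 7.50 and 11.1 CPM in WT-aKG. In KO-Veh the lowest, median and highest values were 16.5, 29.3 and 41.8 CPM, against 4.34, 7.52 and 9.06 CPM in WT-Veh. All 10 KO-Veh libraries lay above all 10 WT-Veh libraries, and 7 of 8 KO-aKG libraries lay above all WT-aKG libraries. Ranges of 2 groups that do not overlap were found for 0.277% of genes with vehicle and 0.603% with dm-αKG. Means were 23.9 ± 12.1 CPM in KO-aKG and 7.99 ± 1.84 CPM in WT-aKG (SD, n = 8 each), a log2 fold change of 1.58 (SE 0.22). With vehicle they were 28.9 ± 7.61 CPM in KO-Veh and 7.29 ± 1.30 CPM in WT-Veh (SD, n = 10 each), a log2 fold change of 1.98 (SE 0.19). Without the cerebellum-high libraries the ranges were separate under both treatments, with log2 fold changes of 1.73 with dm-αKG and 2.13 with vehicle. In that subset, with 7 KO-aKG against 4 WT-aKG and 9 KO-Veh against 7 WT-Veh libraries, ranges did not overlap for 5.06% of all genes with dm-αKG and for 0.794% with vehicle.

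Trim66 (ENSMUSG00000031026.15, chromosome 7, 109449006 to 109508134, minus strand) showed the same direction at a lower count, 7 to 145 counts per library. It stood at 5.67, 8.82 and 11.1 CPM (lowest, median, highest) in KO-aKG, against 0.657, 2.25 and 3.26 CPM in WT-aKG, and these ranges did not overlap. In KO-Veh it stood at 2.13, 7.92 and 11.2 CPM, against 0.742, 2.61 and 4.24 CPM in WT-Veh. Here 8 of 10 KO-Veh libraries lay above all WT-Veh libraries, and the lowest of them was the cerebellum-high KO-Veh-7. The log2 fold change was 1.80 (SE 0.31) with dm-αKG and 1.53 (SE 0.28) with vehicle. It was 1.63 and 1.36 without the cerebellum-high libraries.

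Dleu7 (ENSMUSG00000048281.9, chromosome 14, 62276231 to 62293047, minus strand) was low in the cerebellum-high WT libraries. Among WT libraries it ran from 0.668 to 2.10 CPM in the 7 cerebellum-high ones and from 2.34 to 5.95 CPM in the 11 others, without overlap. The share of all genes that separate these pieces was not counted, so this is not shown to be particular to Dleu7. It averaged 8.46 ± 2.00 CPM in KO-aKG and 3.40 ± 2.12 CPM in WT-aKG (SD, n = 8 each), a log2 fold change of 1.33 (SE 0.42) that was not called. It averaged 9.55 ± 5.16 CPM in KO-Veh and 2.71 ± 1.36 CPM in WT-Veh (SD, n = 10 each), a log2 fold change of 1.82 (SE 0.38), with 0.621 CPM in KO-Veh-7 as the lowest KO value. KO-Veh-7 is cerebellum-high, and the other cerebellum-high knockout library, KO-aKG-7, held 8.92 CPM. Without the cerebellum-high libraries all 9 KO-Veh libraries, 5.80 to 18.5 CPM, lay above all 7 WT-Veh libraries, 2.34 to 4.73 CPM, a separation found for 0.794% of all genes there. In the same libraries with dm-αKG the ranges overlapped, at 5.78 to 11.5 CPM in 7 KO-aKG and 4.94 to 5.95 CPM in 4 WT-aKG libraries, and the log2 fold change was 0.67. With the 5 marker scores described below as covariates the Dleu7 log2 fold change with dm-αKG was 1.13 and called. It was also called by DESeq2 (1.33) and by limma with a pseudocount of 0.5 (1.56) or 2 (1.18), so in 4 of 11 settings. Rnaseh2b, a gene on the other strand that encodes a subunit of ribonuclease H2, overlaps an exon of Dleu7. The sources used here do not say whether counting used strand, so reads of the overlap cannot be assigned, and Rnaseh2b itself was not called (log2 fold change 0.05, SE 0.14, with dm-αKG and 0.34, SE 0.12, with vehicle).

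Ocel1 (ENSMUSG00000002396.8, chromosome 8, 71371298 to 71379361, plus strand) shares its chromosome with Gpt2, at a distance of 14.1 Mb. It stood at 3.05, 5.98 and 12.5 CPM (lowest, median, highest) in KO-aKG, against 7.97, 16.5 and 25.9 CPM in WT-aKG. In KO-Veh it stood at 3.01, 6.81 and 19.1 CPM, against 6.68, 15.8 and 33.8 CPM in WT-Veh. The groups overlapped under both treatments, and 6 of 8 KO-aKG and 3 of 10 KO-Veh libraries lay below all WT libraries of their treatment. The log2 fold change was −1.36 (SE 0.35) with dm-αKG and −1.11 (SE 0.31) with vehicle. Without the cerebellum-high libraries it was −1.54, with all 7 KO-aKG libraries below all 4 WT-aKG libraries (5.06% of all genes had separate ranges in that subset), and −1.31 with vehicle. The call with dm-αKG ended without any 1 of 10 libraries (WT-aKG-1, 2, 4 and 6, and KO-aKG-1, 2, 4, 5, 7 and 8; log2 fold changes −1.42 to −1.24), and the call with vehicle without any 1 of 9 (WT-Veh-7, 8 and 10, and KO-Veh-1, 2, 3, 4, 5 and 10; −1.11 to −0.95). Over 11 settings Ocel1 was called in 10 with dm-αKG and in 6 with vehicle.

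The gene on the other strand of the Ocel1 locus, Nr2f6, encodes an orphan nuclear receptor and overlaps an exon of Ocel1. It was also called lower, at 21.1 ± 2.196 CPM in KO-aKG and 31.2 ± 4.78 CPM in WT-aKG (SD, n = 8 each), for a log2 fold change of −0.57 with SE 0.10 (edgeR adjusted p = 0.000527). With vehicle it averaged 22.6 ± 3.02 CPM in KO-Veh and 31.8 ± 3.92 CPM in WT-Veh (SD, n = 10 each), for a log2 fold change of −0.49 with SE 0.09 (edgeR adjusted p = 0.000492). Without knowledge of strand use, reads of this overlap cannot be told apart either. Within groups the deviations of Ocel1 and Nr2f6 from their group means had a Pearson r of 0.13 over 36 libraries, given as a description. Of 14 tested genes within 200 kb of Ocel1, a window chosen after its values were seen, 0 were called higher and 3 lower in knockouts with dm-αKG, and 1 higher and 3 lower with vehicle. Over all genes 1.12% were called higher and 0.751% lower with dm-αKG, and 2.6% higher and 1.72% lower with vehicle. The 3 with dm-αKG were Nr2f6, Plvap (log2 fold change −0.94), an endothelial protein, and Ano8 (−0.41), a member of the anoctamin family. With vehicle they were Nr2f6, Plvap (log2 fold change −0.87) and Gtpbp3 (−0.32), a tRNA-modifying GTPase of mitochondria, and Use1 (0.36) was higher.

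Cdc42ep1 (ENSMUSG00000049521.2, chromosome 15, 78842624 to 78850897, plus strand) was called lower in knockouts with vehicle only in the fit without covariates. With the 5 marker scores described below as covariates it was called lower under both treatments. Over 11 settings it was called with dm-αKG in that 1 only, and with vehicle in 7. It stood at 3.48, 6.10 and 15.6 CPM (lowest, median, highest) in KO-Veh, against 6.84, 11.5 and 29.2 CPM in WT-Veh, and 8 of 10 KO-Veh libraries lay below all WT-Veh libraries. With vehicle its log2 fold change was −1.07 (SE 0.29). With dm-αKG the values were 3.81, 9.40 and 13.5 CPM in KO-aKG and 6.69, 14.5 and 23.6 CPM in WT-aKG, with a log2 fold change of −0.71 (SE 0.32). All 7 cerebellum-high WT libraries, 18.0 to 23.6 CPM, exceeded 10 of the 11 other WT libraries, the exception being WT-Veh-2 with 29.2 CPM. As for Dleu7, the share of all genes that differ so between these pieces was not counted, here or for Emid1 and Plch2 below. The log2 fold change was −0.09 with dm-αKG and −1.02 with vehicle when the cerebellum-high libraries were left out. The call with vehicle ended without WT-Veh-2 (−0.89), WT-Veh-6 (−1.003), KO-Veh-4 (−0.99) or KO-Veh-10 (−1.02).

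Emid1 (ENSMUSG00000034164.17, chromosome 11, 5106265 to 5152257, minus strand) differed between genotypes mainly with dm-αKG. It stood at 2.50, 3.16 and 6.55 CPM (lowest, median, highest) in KO-aKG, against 4.61, 7.22 and 15.1 CPM in WT-aKG, and 6 of 8 KO-aKG libraries lay below all WT-aKG libraries. With vehicle it stood at 3.92, 5.41 and 8.95 CPM in KO-Veh and 3.05, 5.43 and 13.3 CPM in WT-Veh, and no KO-Veh library lay outside the range of WT-Veh. The log2 fold change was −1.09 (SE 0.27) with dm-αKG and −0.08 (SE 0.24) with vehicle. In WT libraries Emid1 had a median of 9.44 CPM in the cerebellum-high and 5.04 CPM in the other pieces. Without the cerebellum-high libraries its log2 fold change was −0.74 with dm-αKG, no longer called, and 0.24 with vehicle. The call with dm-αKG also ended without WT-aKG-3 or 6, or KO-aKG-1, 2, 5 or 8 (−1.04 to −0.92), and it held in 7 of 11 settings.

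Plch2 (ENSMUSG00000029055.17, chromosome 4, 154983115 to 155056784, minus strand) was likewise called lower with dm-αKG only. It stood at 5.19, 9.25 and 23.8 CPM (lowest, median, highest) in KO-aKG, against 9.87, 24.0 and 54.1 CPM in WT-aKG, and 5 of 8 KO-aKG libraries lay below all WT-aKG libraries. In KO-Veh it stood at 10.2, 15.7 and 34.4 CPM, against 10.2, 22.2 and 44.1 CPM in WT-Veh. The highest value of each of the 4 groups was that of a cerebellum-high library. The log2 fold change was −1.28 (SE 0.34) with dm-αKG and −0.45 (SE 0.30) with vehicle, and −0.95 (no longer called) and −0.22 without the cerebellum-high libraries. The call with dm-αKG also ended without WT-aKG-1, 3, 6 or 7, or KO-aKG-2, 3, 5, 6 or 8 (−1.30 to −1.08). It held in 5 of 11 settings.

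Diras2 (ENSMUSG00000047842.7, chromosome 13, 52504380 to 52531279, minus strand) had the highest counts of the 8, 199 to 1569 per library. It stood at 23.6, 43.8 and 79.6 CPM (lowest, median, highest) in KO-aKG, against 49.9, 86.8 and 124 CPM in WT-aKG. In KO-Veh it stood at 50.2, 65.5 and 127 CPM, against 37.4, 91.3 and 130 CPM in WT-Veh. No KO-Veh library lay outside the range of WT-Veh, while 5 of 8 KO-aKG libraries lay below all WT-aKG libraries. Its log2 fold change was −0.89 (SE 0.23) with dm-αKG and −0.26 (SE 0.21) with vehicle. Without the cerebellum-high libraries it was −1.005 with dm-αKG, with all 7 KO-aKG libraries below all 4 WT-aKG libraries, a separation found for 5.06% of all genes there, and −0.26 with vehicle. The call with dm-αKG ended without WT-aKG-1, 3, 4 or 6, or KO-aKG-2, 4, 5, 6 or 8 (−0.90 to −0.79). It held in 6 of 11 settings.

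**Figure D2:**
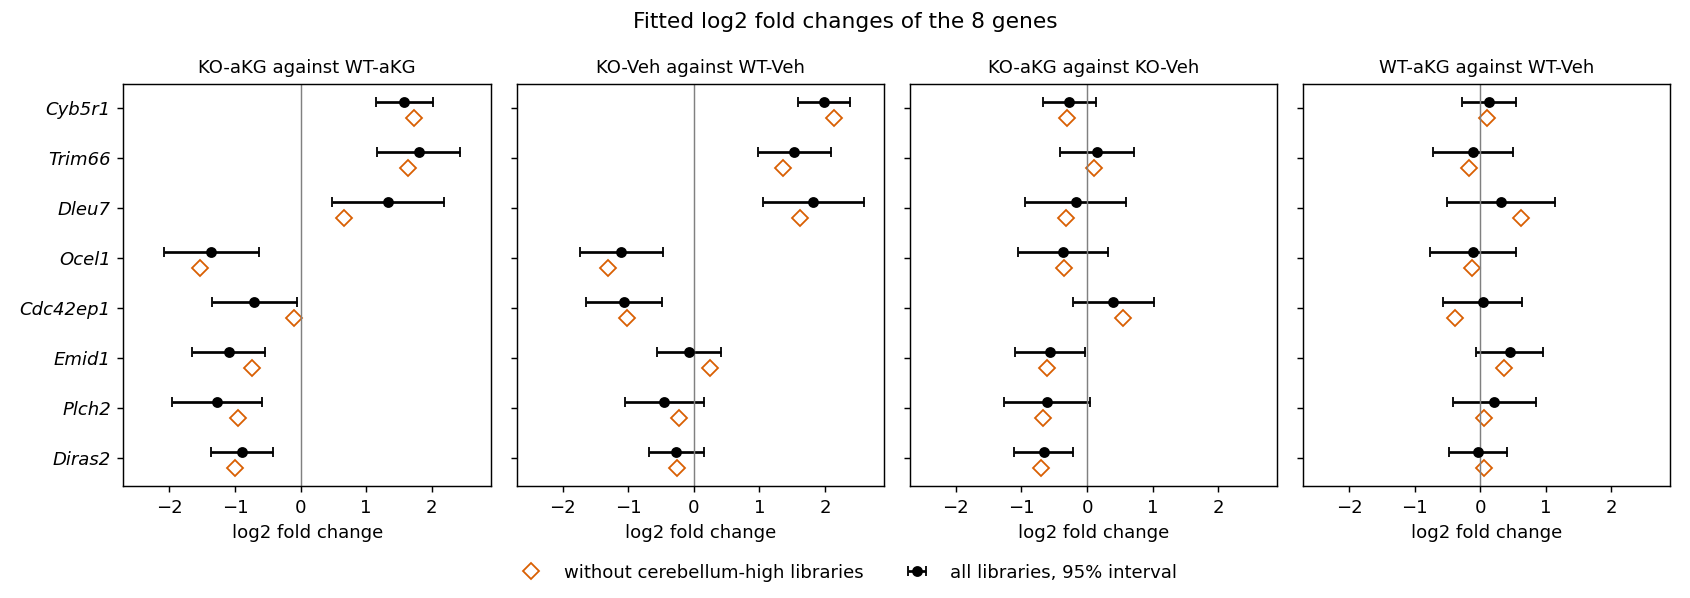
Fitted log2 fold change of each gene (horizontal axis) in the 4 comparisons. Black points are fits to all libraries with their 95% intervals, and open diamonds are fits without the 9 cerebellum-high libraries. Cyb5r1 and Trim66 lie to the right of 0 in both genotype comparisons either way, while Dleu7 with dm-αKG lies at 1.33 with all libraries and at 0.67 without the 9, and Emid1 with vehicle at −0.08 and 0.24.

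The genotype difference with dm-αKG minus that with vehicle was −1.01 for Emid1 (95% interval −1.75 to −0.28), −0.83 for Plch2 (−1.73 to 0.08) and −0.63 for Diras2 (−1.25 to 0.00053). For the other 5 genes it ranged from −0.49 in Dleu7 to 0.36 in Cdc42ep1, and each interval held 0. Because these genes were picked on the comparisons that enter this difference, it is a description and was not tested.

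The comparison of dm-αKG with vehicle was not among those the genes were picked on, but it shares their libraries. Emid1, Plch2 and Diras2 were picked on KO-aKG values that lay below WT-aKG, and the same KO-aKG and WT-aKG values enter the treatment comparisons, so these are given as a description. Of the 8 genes 0 were called between KO-aKG and KO-Veh, where edgeR called 0% of all genes (2 of the 8, and 12.1% of all genes, at an unadjusted p under 0.05), and 0 between WT-aKG and WT-Veh, where it also called 0% (0 of the 8, and 8.55% of all genes, unadjusted). DESeq2, and edgeR with a sex term, also called 0 of the 8 in each. In knockouts Diras2 averaged 45.9 ± 18.2 CPM in KO-aKG (SD, n = 8) and 72.6 ± 22.3 CPM in KO-Veh (SD, n = 10), with 5 of 8 treated libraries below all vehicle libraries. Its log2 fold change was −0.66 (SE 0.22). Emid1 averaged 4.002 ± 1.65 CPM in KO-aKG and 5.91 ± 1.63 CPM in KO-Veh (log2 fold change −0.57, SE 0.26). Plch2 averaged 11.8 ± 6.40 CPM in KO-aKG and 18.1 ± 7.68 CPM in KO-Veh (log2 fold change −0.61, SE 0.32). The other 5 genes had log2 differences from −0.36 in Ocel1 to 0.40 in Cdc42ep1.

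In wild types the largest log2 difference among the 8 genes over all libraries was that of Emid1, with 8.51 ± 3.67 CPM in WT-aKG (n = 8) and 6.24 ± 3.04 CPM in WT-Veh (SD, n = 10; log2 fold change 0.45, SE 0.25). With 5 marker scores as covariates (cerebellum, cerebral cortex, striatum, hypothalamus with thalamus, and myelinating oligodendrocyte) it was 0.59 and called, and 123 genes in all were called in that fit. For Dleu7 all 4 WT-aKG libraries lay above all 7 WT-Veh libraries when the cerebellum-high ones were left out. Of 16255 genes 135 lay above and 129 below in this way there. The Dleu7 log2 fold change was 0.14 to 0.63 over 11 settings and called in 0 of them. For Cyb5r1 the treatment difference was 0.13 (95% interval −0.29 to 0.55) in wild types and −0.27 (−0.67 to 0.13) in knockouts. For Trim66 it was −0.11 (−0.72 to 0.50) in wild types and 0.16 (−0.40 to 0.72) in knockouts.

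Variation between libraries of the same group was not used to choose the genes. Each gene's deviation from its group mean was set against the deviation of 5 list scores in the 27 libraries that are not cerebellum-high, 40 relations in all, with 2-sided permutation tests within groups and Benjamini-Hochberg adjustment over the 40. Cyb5r1 moved with the score of 35 ATF4 target genes, a list without Cyb5r1, with Pearson r = 0.69 (permutation p = 0.00053, adjusted p = 0.0053) and Spearman rho = 0.71 (permutation p = 0.00027, adjusted p = 0.0027). Without the 2 libraries farthest from the median of the score r was 0.73, and with all 36 libraries it was 0.61. The score itself was 4.12 ± 0.27 in KO-aKG and 3.21 ± 0.09 in WT-aKG (SD, n = 8 each), and 4.20 ± 0.26 in KO-Veh and 3.25 ± 0.09 in WT-Veh (SD, n = 10 each). It varied more within knockout than within wild-type groups, so r with this score rests mostly on knockout libraries. Values of r for each genotype alone are not given here. Of the 35 targets, 20 were called higher and 0 lower in knockouts with dm-αKG, and 23 higher and 0 lower with vehicle. Trim66 followed the same score with r = 0.60 (permutation p = 0.00384, adjusted p = 0.0256), or 0.59 without the 2 farthest libraries, but its rho of 0.49 did not pass the threshold (permutation p = 0.0187, adjusted p = 0.083). On the deposited CPM both passed for Trim66 (r = 0.71, permutation p = 0.0002, adjusted p = 0.00133; rho = 0.70, permutation p = 0.00049, adjusted p = 0.00392). With all 36 libraries, TMM-scaled, both also passed for Trim66 (r = 0.54 and rho = 0.60). In those libraries Trim66 passed both with cerebellum markers too (r = −0.66), and the part of region in its relation was not tested. For the other 6 genes r with the ATF4 score lay between −0.04 and 0.08 in the TMM-scaled values of the 27 libraries. On the deposited CPM, without TMM scaling, it lay between −0.10 in Plch2 and 0.40 in Emid1, so r was mostly higher there beyond Trim66 as well. The likeness of Cyb5r1 and Trim66 to each other within groups was r = 0.24 over the 27 libraries, given as a description.

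**Figure D3:**
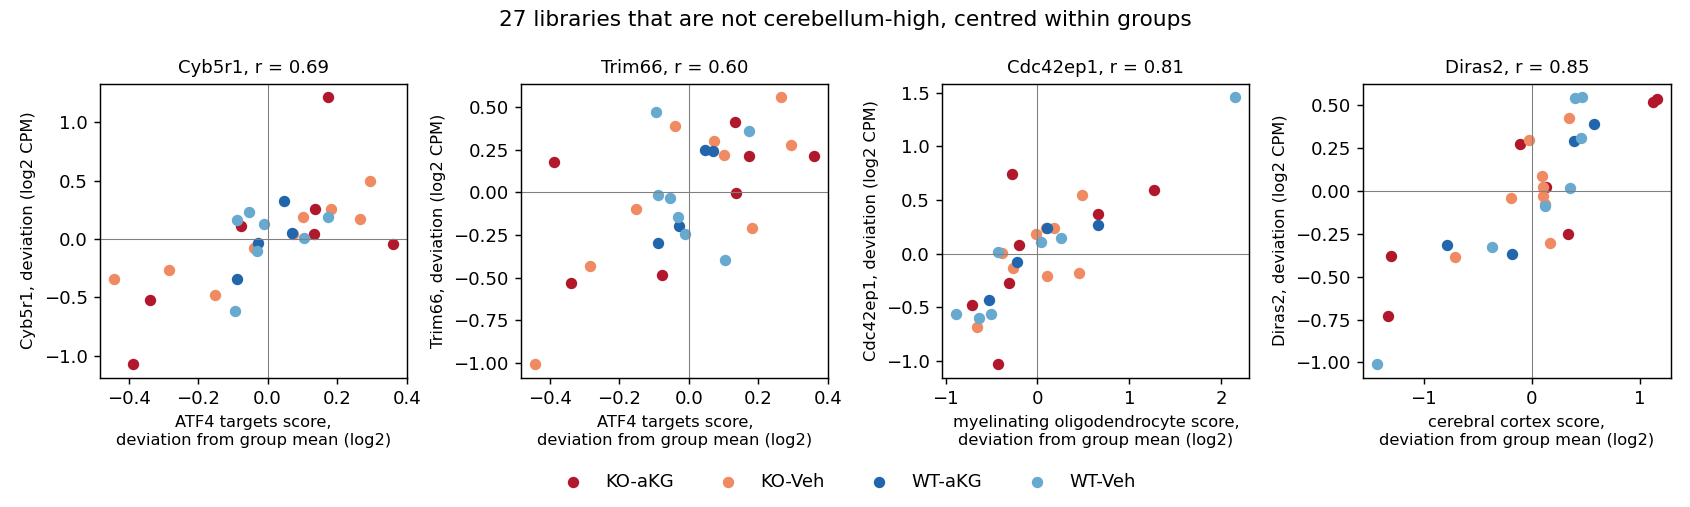
Deviation of a gene's log2 CPM from its group mean (vertical) against the deviation of a list score (horizontal, log2 units) in the 27 libraries that are not cerebellum-high, coloured by group. The panels show Cyb5r1 and Trim66 against ATF4 targets (r = 0.69 and 0.60), Cdc42ep1 against myelinating oligodendrocyte markers (r = 0.81) and Diras2 against cerebral cortex markers (r = 0.85).

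Cdc42ep1 moved with markers of myelinating oligodendrocytes, the cells that wrap axons, with r = 0.81 (permutation p = 3e-05, adjusted p = 0.0006) and rho = 0.80 (permutation p = 1e-05, the smallest these permutations can give, adjusted p = 0.0002). Without KO-aKG-8 and WT-Veh-2, the libraries farthest out on the score, r was 0.68. It moved against cerebral cortex markers (r = −0.77, permutation p = 0.0001, adjusted p = 0.00133; rho = −0.71, adjusted p = 0.0027). It also moved with genes of sterol synthesis (r = 0.67, permutation p = 0.00146, adjusted p = 0.0117; rho = 0.59, adjusted p = 0.0177), a relation that dropped to r = 0.45 without KO-Veh-4 and WT-Veh-2. Of the 25 sterol genes 0 were called higher and 3 lower in knockouts with dm-αKG, and 0 higher and 14 lower with vehicle. The 20 myelin markers had a median log2 fold change of 0.09 with dm-αKG and −0.61 with vehicle between genotypes, and summed to 8468 to 35953 CPM in KO-aKG and 4081 to 40839 CPM in WT-aKG, and to 3536 to 20764 CPM in KO-Veh and 4205 to 42063 CPM in WT-Veh. edgeR called 0 of the 20 in each comparison (0 with dm-αKG and 3 with vehicle at an unadjusted p under 0.05), and DESeq2 also 0. Of all 16255 genes 2553 with dm-αKG and 3417 with vehicle had an unadjusted p under 0.05. Of 15 astrocyte markers, edgeR and DESeq2 each called 0 with dm-αKG and 2 with vehicle, both lower in knockouts, namely Aqp4 (log2 fold change −1.22, SE 0.33) and Slc7a10 (−0.82, SE 0.19), an amino acid transporter of astrocytes. The 15 had a median log2 fold change of −0.13 with dm-αKG and −0.19 with vehicle, and summed to 2947 to 4467 CPM in KO-aKG and 2776 to 4948 CPM in WT-aKG, and to 2735 to 5310 CPM in KO-Veh and 2959 to 5671 CPM in WT-Veh. The part of the myelin, sterol and astrocyte genes in the Cdc42ep1 difference was not tested. With the 5 marker scores together as covariates the log2 fold change of Cdc42ep1 was −0.75 with dm-αKG and −0.64 with vehicle, called in both.

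Diras2 moved with cerebral cortex markers, mostly genes of cortical excitatory neurons, with r = 0.85 and rho = 0.83 (permutation p = 1e-05 each, the smallest these permutations can give, adjusted p = 0.0004 and 0.0002). Without KO-aKG-5 and KO-aKG-8, the libraries farthest out on the score, r was 0.83. With all 36 libraries, cerebellum-high ones included, r was 0.07. In the 27 libraries the cortex score was 4.83 ± 1.02 in 7 KO-aKG libraries, 5.97 ± 0.30 in 9 KO-Veh, 5.69 ± 0.62 in 4 WT-aKG and 5.64 ± 0.69 in 7 WT-Veh libraries (SD). With the 5 marker scores as covariates the log2 fold change of Diras2 was −0.37 between KO-aKG and WT-aKG, no longer called, and −0.23 between KO-aKG and KO-Veh. Plch2 gave −0.50 between KO-aKG and WT-aKG in that fit, no longer called, while Emid1 stayed called at −0.61. The 16 cortex markers and the 21 cerebellum markers had median log2 fold changes of −0.04 and −1.81 between KO-aKG and WT-aKG, and of 0.57 and −1.09 between KO-Veh and WT-Veh. edgeR and DESeq2 each called 0 of either list in both genotype comparisons, and edgeR put 2 of 16 and 4 of 21 with dm-αKG and 0 of 16 and 1 of 21 with vehicle at an unadjusted p under 0.05. These stand beside 2553 of all 16255 genes with dm-αKG and 3417 with vehicle. No marker of these lists was at 0 in all libraries.

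**Figure D4:**
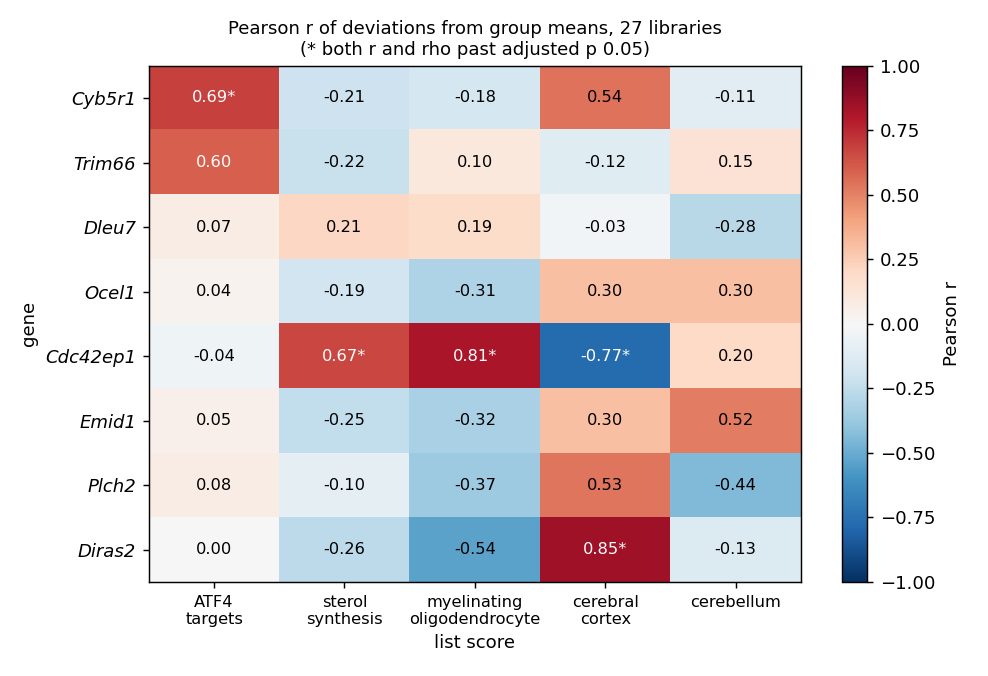
Pearson r between each gene (rows) and each of 5 list scores (columns) over 27 libraries, as deviations from group means. Colour runs from −1 (blue) to 1 (red), and asterisks mark the 5 relations whose r and rho both passed an adjusted p of 0.05. Dleu7, Ocel1, Emid1 and Plch2 carry no asterisk.

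Of the remaining relations, Emid1 with cerebellum markers (r = 0.52, permutation p = 0.00984, adjusted p = 0.0562; rho = 0.57, adjusted p = 0.0177) and Cyb5r1 with cortex markers (r = 0.54, permutation p = 0.0238, adjusted p = 0.0954; rho = 0.57, adjusted p = 0.0177) passed with rho only. On the deposited CPM Emid1 with cerebellum markers passed with both (r = 0.71, permutation p = 0.00013, adjusted p = 0.00112; rho = 0.72, permutation p = 6e-05, adjusted p = 0.0006), and 7 relations in all did. Dleu7, Ocel1 and Plch2 passed with neither measure against any of the 5 scores in the TMM-scaled values of the 27 libraries. With all 36 libraries, cerebellum-high ones included, Dleu7 passed both with cerebellum (r = −0.83) and cortex markers (r = 0.74). Ocel1 then passed both with cortex (r = 0.64), cerebellum (r = −0.55) and myelinating oligodendrocyte markers (r = −0.51). By r only, Dleu7 passed with myelinating oligodendrocyte (r = −0.43) and Plch2 with cerebellum markers (r = 0.55).

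The genes whose log2 CPM was most like each of the 8 within groups, over all 36 libraries, are given as a description. For Cyb5r1 they were Shmt2 (r = 0.69), the mitochondrial serine hydroxymethyltransferase and a member of the ATF4 list, Slc30a4 (0.68), a zinc transporter, and Ifrd1 (0.67). For Cdc42ep1 they were Aqp4 (0.90), the water channel of astrocytes, Ttyh2 (0.90) and Clic4 (0.89), and these stayed at 0.84 to 0.87 in the 27 libraries. For Diras2 they were Rab3d (0.86), Phyhip (0.83) and Arhgef7 (0.82), at 0.79 to 0.83 in the 27. The partners of Trim66 and Dleu7 had lower likeness without the cerebellum-high libraries. Cobl (0.92), Vstm2a (0.89) and Acsl5 (0.89) for Dleu7 dropped to 0.48, 0.46 and 0.30, and Tox2 (0.85), Camk2g (0.84) and Rasgrf2 (0.84) for Trim66 dropped to 0.54, 0.57 and 0.36. Emid1 was most like Dot1l (0.83), Tuba8 (0.83) and Ackr1 (0.82), Plch2 most like Sbk1 (0.84), Arhgef7 (0.82) and Adcy1 (0.82), and Ocel1 most like Rpl21, Rasal1 and Cdkl4 (0.76, 0.76 and 0.75). Among the 8 themselves, Trim66 and Dleu7 had r = 0.71 over 36 libraries and 0.00 over the 27.

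Relatives and partners of the 8 genes were examined in 8 lists, without the 8 themselves. Of 90 genes listed 79 were tested, and 0 were called higher and 2 lower in knockouts with dm-αKG, and 2 higher and 1 lower with vehicle. They are read against shares of all genes of 1.12% higher and 0.751% lower with dm-αKG and 2.6% higher and 1.72% lower with vehicle, and with so few calls nothing particular to the lists is drawn from them. With dm-αKG Cyb5b, the cytochrome b5 of the outer mitochondrial membrane and an electron acceptor of such reductases, stood at 34.7 ± 2.21 CPM in KO-aKG and 45.8 ± 6.52 CPM in WT-aKG (SD, n = 8 each), for a log2 fold change of −0.40 with SE 0.11 (edgeR adjusted p = 0.0488). Septin3, a neuronal septin, stood at 109 ± 30.7 CPM in KO-aKG and 190.4 ± 55.4 CPM in WT-aKG (log2 fold change −0.81, SE 0.19, edgeR adjusted p = 0.0187). With vehicle Mtarc2, a molybdenum enzyme that takes electrons from cytochrome b5, stood at 68.6 ± 8.54 CPM in KO-Veh and 53.4 ± 7.18 CPM in WT-Veh (SD, n = 10 each), for a log2 fold change of 0.36 with SE 0.08 (edgeR adjusted p = 0.00648). Rit1, a Ras-related GTPase, stood at 36.2 ± 3.46 CPM in KO-Veh and 27.4 ± 3.76 CPM in WT-Veh (log2 fold change 0.40, SE 0.07, edgeR adjusted p = 0.000678). Cdc42ep4, a close relative of Cdc42ep1, stood at 35.8 ± 9.49 CPM in KO-Veh and 52.6 ± 13.4 CPM in WT-Veh (log2 fold change −0.55, SE 0.16, edgeR adjusted p = 0.0391).

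By list, 1 of 8 genes was called lower among cytochrome b5 reductases and their partners with dm-αKG and 1 higher with vehicle, and 1 of 17 Cdc42 effectors and septins was lower under each treatment. Of 16 Ras-related GTPases 1 was higher with vehicle. Among 6 TIF1 proteins and HP1 partners, 6 genes of the Dleu7 locus, 4 occludin-ELL domain proteins, 8 EMI domain proteins and 14 phospholipases C edgeR called 0 in either genotype comparison. The median log2 fold changes of the 8 lists lay between −0.37 and 0.04 with dm-αKG and between −0.35 and 0.11 with vehicle, beside −0.02 over all genes in both. Some close relatives, named after their values were seen, did not pass: Cyb5r3 (log2 fold change −0.23 with dm-αKG and −0.20 with vehicle), Trim24 (0.20 and 0.12), Diras1 (−0.30 and −0.34) and Plch1 (0.52 and 0.09), with adjusted p from 0.196 to 0.824. Cdc42ep4, called lower with vehicle as given above, was −0.63 with dm-αKG and not called (edgeR adjusted p = 0.0562). Over all 8 lists the treatment called 0 of 79 genes by edgeR in each genotype (14 in knockouts and 5 in wild types at an unadjusted p under 0.05). DESeq2 called 0 in knockouts and 1 in wild types. When the cerebellum-high libraries were left out, 6 of the listed genes were called with dm-αKG and 8 with vehicle, beside 3.63% and 3.77% of all genes in those fits.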

How the data were processed

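Polyadenylated RNA of 36 mouse brain libraries was analysed. The authors deposited estimated counts per gene (whole numbers) and a table of CPM, counts scaled to the library total. The submitters' processing notes name, without order or role, featureCounts 2.0.6, HISAT2 2.2.1, Trim Galore 0.6.10 and SAMtools 1.6 among the tools and mm10 as well as mm39 among the builds. The labels describe oligo-dT priming with molecular identifiers, while the sources used here do not say whether counting used identifiers or strand.

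Counts were tested with edgeR 4.0.16 (R 4.3.3; filterByExpr, TMM, robust quasi-likelihood fit of 4 groups over all 36 libraries, Benjamini-Hochberg threshold 0.05), in a procedure tested on simulated data. DESeq2 1.42.0 and limma 3.58.1 (limma on log2(deposited CPM + 0.5)) were alternatives. Scores are mean log2 CPM with a prior count of 2. Correlations used scipy 1.17.1 and 100000 permutations. Gene positions come from GENCODE on GRCm38. The 8 genes, the lists and the tests were chosen with earlier results of these data known. Genes named are Gpt2, the 8, called relatives and the 3 genes most like each of the 8 with a mean of at least 5 CPM. Others were named after their values were seen. No 2 libraries of a group were identical.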

Additional observations from a re-analysis of the deposited data

Results flagged for a closer look

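In 32 sets of values, the 8 genes in each of the 4 groups, 4 libraries stood apart from the rest of their group by Dixon's criterion, which chance meets in about 1 in 20 groups. Cyb5r1 was 51.09 CPM in KO-aKG-1, where the next highest KO-aKG library had 26.14 CPM. Ocel1 was 19.1 CPM in KO-Veh-8, with 11.18 CPM in the next KO-Veh library. Cdc42ep1 was 15.6 CPM in KO-Veh-7, with 8.366 CPM in the next, and Diras2 was 127.2 CPM in the same KO-Veh-7, with 88.31 CPM in the next. KO-Veh-7 is the cerebellum-high library of its group, and its part in these values was not tested.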

How the results depend on the processing

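Cyb5r1 and Trim66 were called higher in both genotype comparisons under all 11 settings and in every fit that left out a library. Of the 8 genes 6 were called with dm-αKG, but 3 without the filter on low counts and 3 with only the 2 groups in the fit. With vehicle 5 were called, but 3 in each of those settings and 3 by limma with a pseudocount of 0.5 or 2. Leaving out 1 library gave 2 to 6 calls with dm-αKG (2 without WT-aKG-6 or KO-aKG-2, 5 or 8, and 3 without WT-aKG-1 or 3), 3 to 5 with vehicle (3 without KO-Veh-4 or 10) and 0 to 0 for the treatment in either genotype. Between WT-aKG and WT-Veh 1 gene, Emid1, was called with 5 marker scores as covariates. Relatives had 5 calls, against 14 without the cerebellum-high libraries, 19 with marker scores, 8 by DESeq2 and 2 by limma with either pseudocount. These relatives' settings other than DESeq2 were chosen after seeing the data. Relations with scores numbered 5, against 13 with all 36 libraries and 7 with the deposited CPM.

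Signs turned for values that were not called. Emid1 with vehicle was 0.24 without the cerebellum-high libraries and 0.26 with marker scores, and −0.16 to 0.11 leaving out a library. Between KO-aKG and KO-Veh, Dleu7 was 0.060 with marker scores and 0.23 and 0.14 by limma, and Cdc42ep1 was −0.12 with marker scores. Between WT-aKG and WT-Veh, Ocel1 was 0.033 and 0.020 by limma. Cdc42ep1 was −0.035 with the replicate block, −0.38 without the cerebellum-high libraries, −0.018 with marker scores and −0.0071 with a sex term, and Diras2 was 0.053, 0.040 and 0.070 in the last 3 of these. Leaving out a library there gave −0.22 to 0.030 for Trim66, −0.23 to 0.036 for Ocel1, −0.091 to 0.21 for Cdc42ep1 and −0.13 to 0.047 for Diras2. The cause was not tested.

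Neither the labels nor the data settle whether library numbers pair the samples. Deviations of same-numbered libraries correlated above 0.1 in 7 of 8 pairs between KO-aKG and WT-aKG (−0.362 to 0.609), 3 of 10 between KO-Veh and WT-Veh (−0.566 to 0.445), 4 of 8 between KO-aKG and KO-Veh (−0.168 to 0.482) and 3 of 8 between WT-aKG and WT-Veh (−0.652 to 0.673), and 3, 2, 1 and 2 pairs of these correlated best with their own number. With the number as a replicate block 6 genes were called with dm-αKG, 4 with vehicle (Ocel1 was −1.12 and not called) and 0 for the treatment in either genotype. Over all genes 304 were called with dm-αKG, against 145 without the filter, 599 without the cerebellum-high libraries, 470 by DESeq2 and 210 by limma, and 133, 145, 163 and 188 without KO-aKG-8, WT-aKG-6, KO-aKG-2 or WT-aKG-1. With vehicle 701 were called, against 348 without the filter, 324 with 2 groups, 1963 with marker scores and 161 by limma, and 440 and 467 without KO-Veh-10 or 4, and 1662 (741 higher, 921 lower) without KO-Veh-7. Counts of 7 to 208 per library limit the precision for Trim66 and Dleu7, and counts of 18 to 191 that for Emid1.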
